A study of Mus musculus with 6 samples.

Results

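The genes described here are 9 genes of immature thymocytes: Ptcra, Dntt, Rag1, Rag2, Satb1, Arpp21, Cd8a, Cd8b1 and Cd24a. They were chosen by symbol, and each was read from its brightest probe, by the mean over all arrays, among 20866 genes named on the array. RNA from 3 sorted thymic populations of C57BL/6 mice, aged 1.5 to 2 weeks and of 2 genotypes, was hybridised to 6 one-colour Agilent arrays, a single array for each group. TNF-KO mice lack TNFalpha, and TNF/RelA-DKO mice lack TNFalpha and RelA, a subunit of NF-kB also known as p65, so that per the labels every mouse used lacked TNF and none was wild type. CD4+CD25hi thymocytes, among which regulatory T cells are enriched, were sorted as CD4+CD8alpha-CD25hi and pooled from 5 mice per genotype. CD45-EpCAM+ cells, the thymic epithelial fraction, and CD45+EpCAM- cells, a stroma-enriched fraction said to hold macrophages and dendritic cells, came from 10 thymi per genotype. The sex of the mice is not given in the sources used here.

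In the thymus, a developing T cell cuts and rejoins its antigen receptor genes with the RAG1 and RAG2 recombinase, while terminal deoxynucleotidyl transferase, the product of Dntt, adds bases at the junctions. The rearranged beta chain is tested in a complex with the pre-T-cell receptor alpha chain, the product of Ptcra, after which the cell divides and becomes a CD4 and CD8 double-positive thymocyte. Selected cells shut down recombination and mature into single-positive cells, among them the CD4+CD25hi regulatory T cells, and lose surface CD24 as they do so.

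Levels are given as log2 of the background-corrected spot signal above the 75th percentile of the array, so that 0 is the 75th percentile. That percentile lay at a signal of 272 to 675 on 5 arrays and at 108 on the TNF/RelA-DKO CD45-EpCAM+ array, where 47.2% of probes were well above background, against 55.1% to 66.2% on the others. Each population lay on its own slide, which cannot be told apart from the population, and the genotypes of a population shared a slide. Rela, the gene deleted in the double knockout, was lower there in every population, at 2.66 against 4.52 in CD4+CD25hi, 1.81 against 3.84 in CD45-EpCAM+ and 3.30 against 4.04 in CD45+EpCAM- cells. The Tnf probe read -0.64 and -0.78 in CD4+CD25hi cells, -1.49 and -2.71 in CD45-EpCAM+ cells (the latter not well above background), and -0.57 and -0.64 in CD45+EpCAM- cells, TNF-KO first. Whether that probe lies in the deleted stretch of Tnf is not given in the sources used here, so its signal does not check the deletion. A population mean below is over 2 arrays, which differ in genotype and are not replicates. Populations were compared in a limma model that also held genotype, and a gene was called at a Benjamini-Hochberg adjusted p of at most 0.05 and a difference of at least 2-fold. These p-values rest only on how the genotype difference varies between the populations and not on replicate pools. Of the 9 genes, 8 were well above background on all 6 arrays and Rag2 on 5, and no spot of them was saturated.

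The label was checked against markers of the sorts. All 15 pan-T genes (Cd3e, Lck, Thy1, Bcl11b and others) were well above background on every array. The log2 of their summed linear levels was 9.47 and 9.43 in the CD4+CD25hi sort and 9.34 and 9.40 in CD45+EpCAM- cells, TNF-KO first. It was 6.48 and 7.42 in CD45-EpCAM+ cells. There the mean levels of these genes ran from -1.82 for Cd2 to 4.90 for Lck, and the highest weigh most in the sum. Regulatory T cell markers (Foxp3, Il2ra, Ctla4, Ikzf2, Tnfrsf18 and Tnfrsf4) were called higher in the CD4+CD25hi sort than in either other population in 6 of 6 cases. Of these, Il2ra encodes CD25, on which that sort was gated, so its call is a description. For thymic epithelial markers, the log2 of the summed linear levels was 8.71 and 9.13 in CD45-EpCAM+ cells and -2.01 to -1.42 in the other sorts. That list holds Epcam, whose product was part of the gate. Macrophage markers were well above background in 7 of 7 cases on both CD45+EpCAM- arrays (log2 of the summed linear levels 3.52 and 4.27). They were so in 7 and 6 of 7 on the CD45-EpCAM+ arrays (2.53 and 3.23), and in 2 of 7 on both CD4+CD25hi arrays (0.43 and 0.70). Both stromal fractions thus carried macrophage markers and T-lineage transcripts, the latter in CD45+EpCAM- cells at a summed level near that of the sorted thymocytes and in CD45-EpCAM+ cells at a lower one. In these bulk samples, fewer cells of a type and less RNA per cell cannot be told apart.

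Across the populations, 8 of the 9 genes had their highest mean in CD45+EpCAM- cells, and Ptcra had it in CD45-EpCAM+ cells. The CD4+CD25hi sort had the lowest mean of 7 genes, and CD45-EpCAM+ cells that of Satb1 and Cd8b1. The shares of all genes with their highest or lowest mean in each population were not computed, so these counts are descriptions. Both CD4+CD25hi arrays lay below both CD45+EpCAM- arrays for 9 of 9 genes, an order seen in 34.7% of the 13740 genes tested. Among the 9 are Cd8a and Cd8b1, and that sort excluded cells with CD8alpha protein, so their part in this count is a description.

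**Figure D1:**
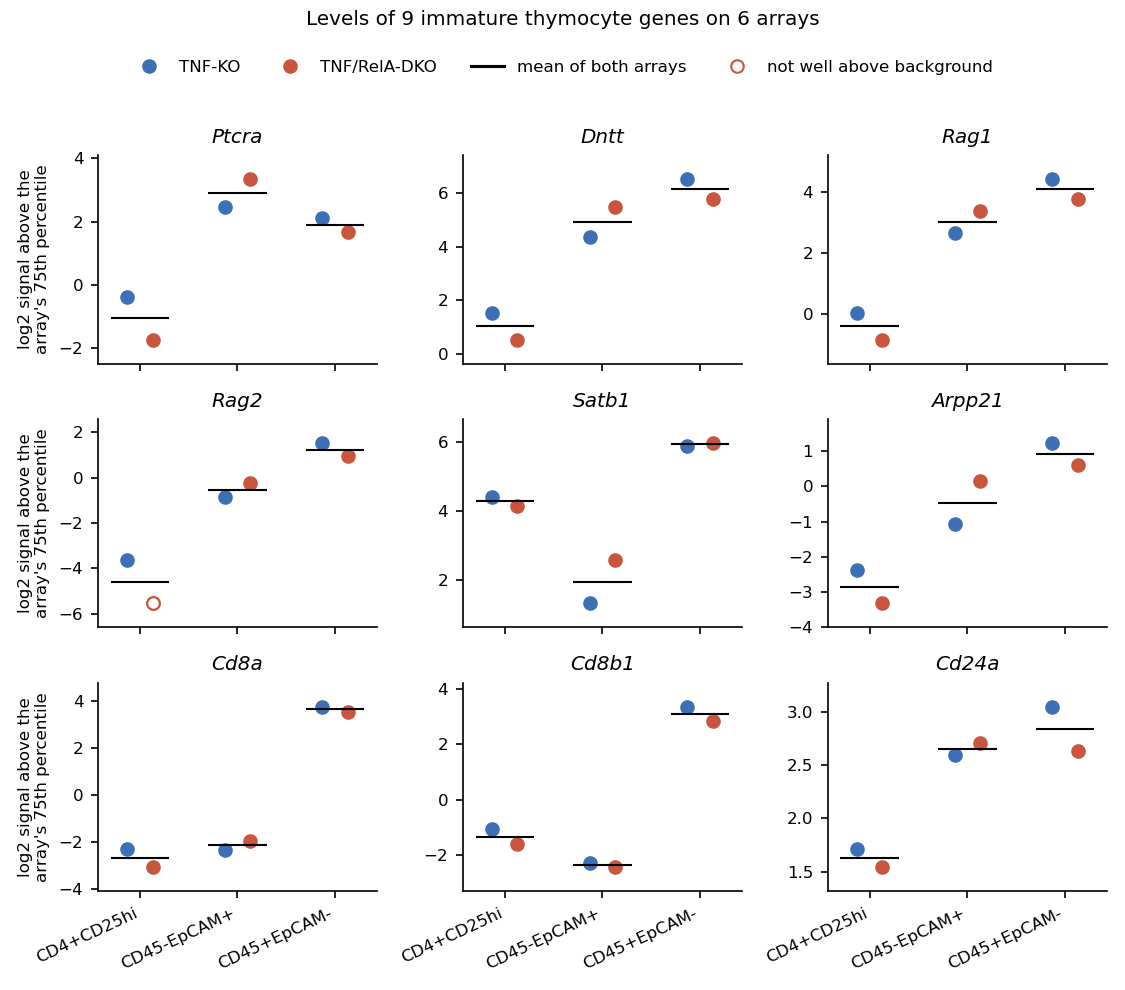
Levels of the 9 genes on the 6 arrays, as log2 signal above the array's 75th percentile, by sorted population. Blue points are TNF-KO, red points TNF/RelA-DKO, a line is the mean of both and the open point (Rag2) is not well above background. The CD4+CD25hi mean lies lowest for 7 genes, and Cd8a and Cd8b1 are high only in CD45+EpCAM- cells.

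The recombination genes Rag1, Rag2 and Dntt and the pre-T-cell receptor gene Ptcra stood low together in the CD4+CD25hi sort. Their RefSeq promoter windows (GRCm38.p6, the 250 bases before the annotated start) are shown because these 4 genes assemble and test the antigen receptor, and E proteins, transcription factors of early thymocytes, bind the E-box. Capitals mark E-boxes, the letters CANNTG, which read the same on both strands. The windows are Ptcra, minus strand, chr17:46763713-46763962, Dntt, plus strand, chr19:41029025-41029274, Rag1, minus strand, chr2:101649533-101649782, and Rag2, plus strand, chr2:101624462-101624711.
Ptcra: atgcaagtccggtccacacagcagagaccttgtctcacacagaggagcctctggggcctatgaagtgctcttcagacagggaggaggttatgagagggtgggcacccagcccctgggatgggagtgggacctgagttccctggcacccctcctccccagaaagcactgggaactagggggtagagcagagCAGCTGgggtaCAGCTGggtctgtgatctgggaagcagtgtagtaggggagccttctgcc
Dntt: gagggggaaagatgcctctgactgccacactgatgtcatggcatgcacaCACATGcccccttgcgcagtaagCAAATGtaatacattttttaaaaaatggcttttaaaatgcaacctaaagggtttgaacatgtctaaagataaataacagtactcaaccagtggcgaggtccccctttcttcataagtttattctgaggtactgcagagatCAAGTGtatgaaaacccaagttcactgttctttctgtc
Rag1: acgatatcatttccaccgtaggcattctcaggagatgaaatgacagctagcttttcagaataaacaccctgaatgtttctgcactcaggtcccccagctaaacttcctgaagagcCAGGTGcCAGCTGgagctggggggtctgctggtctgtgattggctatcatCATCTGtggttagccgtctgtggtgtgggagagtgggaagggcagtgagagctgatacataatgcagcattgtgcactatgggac
Rag2: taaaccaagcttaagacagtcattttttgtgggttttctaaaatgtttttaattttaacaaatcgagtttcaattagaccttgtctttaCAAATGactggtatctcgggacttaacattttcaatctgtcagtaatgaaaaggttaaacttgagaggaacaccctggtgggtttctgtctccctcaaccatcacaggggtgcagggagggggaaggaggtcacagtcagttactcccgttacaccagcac
Ptcra held 2 E-boxes, both CAGCTG, starting 60 and 49 bases before the start, Dntt held 3, Rag1 held 3, and Rag2 held 1, at 161 bases before it. Of 32817 windows of this length in the table, 66.2% held at least 1 E-box, 31.8% at least 2 and 12.2% at least 3, so that E-boxes in these windows are common letters in promoters at large. The Rag1 window also held 2 matches to the RUNX letters TGTGGT or TGCGGT on either strand, 1 of them overlapping an E-box. At least 1 such match was found in 18.6% of windows, and the share with 2 or with an overlap was not computed. No window of the 7 members in the table matched the kB motif searched for NF-kB, found in 3.9% of all windows, or TATAAA, found in 12.4%. A match is a run of letters and no evidence of binding, and a missing match says only that these letters are not in the window. Rag1 and Rag2 stand next to each other on chromosome 2, with 0 genes between them in the table.

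Rag1, a recombinase subunit that cuts the receptor genes, had a level of 0.03 in TNF-KO and -0.85 in the TNF/RelA-DKO CD4+CD25hi sort, 2.64 and 3.35 in CD45-EpCAM+ cells, and 4.40 and 3.76 in CD45+EpCAM- cells. The 3 populations did not overlap, and cells of the CD4+CD25hi sort were lowest on both arrays. Rag1 was called 22.4-fold lower in the CD4+CD25hi sort than in CD45+EpCAM- cells (log2 difference -4.49, SE 0.46, limma adjusted p = 0.0190) and 10.6-fold lower than in CD45-EpCAM+ cells (adjusted p = 0.00879). Its dimmer second probe kept the same order of populations, at mean levels of -3.27, -1.42 and 0.52.

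Rag2, the partner subunit, had levels of -3.61 and -5.54 in the CD4+CD25hi sort, -0.85 and -0.23 in CD45-EpCAM+ cells, and 1.51 and 0.95 in CD45+EpCAM- cells, TNF-KO first. The TNF/RelA-DKO CD4+CD25hi value was not well above background, the single such case among the 9 genes. With that value raised to the lowest level well above background on its array, Rag2 was at least 39.2-fold lower in the CD4+CD25hi sort than in CD45+EpCAM- cells (SE 0.43 on the log2 scale, limma adjusted p = 0.0156) and at least 11.5-fold lower than in CD45-EpCAM+ cells (adjusted p = 0.00721). It was called in both comparisons with the value as measured too (limma adjusted p = 0.0226 and 0.0140). Between the stromal fractions, Rag2 was 3.41-fold higher in CD45+EpCAM- cells, which was called with the raised value (limma adjusted p = 0.0337) and not with the value as measured (adjusted p = 0.0951). Neither of these fractions held the raised value, which lowered the spread shared by all populations, to an SE of 0.43 from 0.67 as measured. The other probe of Rag2 was well above background in CD45+EpCAM- cells alone.

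Dntt had levels of 1.54 and 0.53 in the CD4+CD25hi sort, 4.36 and 5.47 in CD45-EpCAM+ cells, and 6.50 and 5.76 in CD45+EpCAM- cells. Dntt followed the order of Rag1 on all 6 arrays, and the Pearson r of both genes over the 6 arrays was 0.999, a description of arrays that share populations and slides. It was called 34.1-fold lower in the CD4+CD25hi sort than in CD45+EpCAM- cells (SE 0.61, limma adjusted p = 0.0235) and 14.7-fold lower than in CD45-EpCAM+ cells (adjusted p = 0.0121).

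Ptcra had levels of -0.39 and -1.74 in the CD4+CD25hi sort, 2.46 and 3.34 in CD45-EpCAM+ cells, and 2.12 and 1.67 in CD45+EpCAM- cells. Here the fractions other than CD4+CD25hi were close, with the CD45-EpCAM+ pair above the CD45+EpCAM- pair. Ptcra was called 15.6-fold lower in the CD4+CD25hi sort than in CD45-EpCAM+ cells (SE 0.59, limma adjusted p = 0.0110). Against CD45+EpCAM- cells it was 7.79-fold lower, with an adjusted p of 0.0528 in limma that missed the threshold. The gap between CD45+EpCAM- and CD45-EpCAM+ cells, 2.00-fold lower in the former (SE 0.59), had an adjusted p of 0.224 in limma.

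Satb1 and Arpp21 are a chromatin organizer of thymocytes and a gene for a cyclic AMP-regulated phosphoprotein expressed in immature thymocytes. Satb1 had levels of 4.42 and 4.16 in the CD4+CD25hi sort, 1.33 and 2.57 in CD45-EpCAM+ cells, and 5.90 and 5.98 in CD45+EpCAM- cells. Satb1 thus ran against Rag1, Rag2, Dntt and Ptcra between the CD4+CD25hi and CD45-EpCAM+ sorts, and its r with Ptcra over the 6 arrays was -0.28. Satb1 was called 5.07-fold higher in the CD4+CD25hi sort than in CD45-EpCAM+ cells (SE 0.43, limma adjusted p = 0.0171), while its 3.14-fold lower level than in CD45+EpCAM- cells was not called (adjusted p = 0.0832). Arpp21 had levels of -2.37 and -3.33, then -1.07 and 0.15, then 1.23 and 0.61 in the same order. Its populations did not overlap, and it was called 13.7-fold lower in the CD4+CD25hi sort than in CD45+EpCAM- cells and 5.25-fold lower than in CD45-EpCAM+ cells (SE 0.62, limma adjusted p = 0.0385 for each). Its other probes were dimmer. The first of them kept this order, at mean levels of -4.51, -1.75 and -0.78, while the other overlapped between CD45-EpCAM+ cells (-3.27 and -2.10) and CD45+EpCAM- cells (-2.51 and -2.86) and was not well above background on either CD4+CD25hi array.

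Cd8a and Cd8b1 encode the chains of the CD8 coreceptor and lie next to each other in the genome table. The CD4+CD25hi sort excluded cells with CD8alpha protein, so the comparisons of Cd8a and of Cd8b1, whose product pairs with CD8alpha at the surface, with that sort are descriptions. Cd8a had levels of -2.29 and -3.07 in the CD4+CD25hi sort, -2.34 and -1.94 in CD45-EpCAM+ cells, and 3.74 and 3.53 in CD45+EpCAM- cells. Cd8b1 had levels of -1.07 and -1.62, then -2.30 and -2.45, then 3.36 and 2.84. Both chains were high in CD45+EpCAM- cells alone and low in CD45-EpCAM+ cells, which were sorted without a CD8 gate, and their r over the 6 arrays was 0.965. In CD45+EpCAM- against CD45-EpCAM+ cells, a comparison without the CD8 gate, Cd8a was called 54.8-fold higher (SE 0.33, limma adjusted p = 0.00263) and Cd8b1 44.5-fold higher (SE 0.17, adjusted p = 0.00183). Against CD45+EpCAM- cells, the gated thymocytes were 79.7-fold lower for Cd8a (limma adjusted p = 0.00921) and 21.8-fold lower for Cd8b1 (adjusted p = 0.00917), both called. Against CD45-EpCAM+ cells, Cd8b1 was called 2.04-fold higher (limma adjusted p = 0.0132), and Cd8a differed by -0.54 (SE 0.33, adjusted p = 0.235) and by 0.09 after quantile normalization.

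Cd24a, the heat-stable antigen, had the narrowest range of the 9 genes, with levels of 1.71 and 1.54 in the CD4+CD25hi sort, 2.59 and 2.71 in CD45-EpCAM+ cells, and 3.04 and 2.63 in CD45+EpCAM- cells. The last pairs overlapped, and both lay above the CD4+CD25hi pair. Cd24a was called 2.32-fold lower in the CD4+CD25hi sort than in CD45+EpCAM- cells (SE 0.18, limma adjusted p = 0.0325) and 2.03-fold lower than in CD45-EpCAM+ cells (adjusted p = 0.0159). The difference of 0.19 between CD45+EpCAM- and CD45-EpCAM+ cells was not called (limma adjusted p = 0.422) and turned to -0.14 after quantile normalization and -0.04 after median scaling.

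By calls, cells of the CD4+CD25hi sort were lower than CD45+EpCAM- cells for 7 of the 9 genes and higher for 0, where 7.82% of the 13740 genes were called lower and 4.82% higher. Those 7 include Cd8a and Cd8b1, and the sort excluded cells with CD8alpha protein, so their part in this count is a description. Against CD45-EpCAM+ cells, the CD4+CD25hi sort was lower for 6 genes and higher for 2, Satb1 and Cd8b1. There 20.7% of genes were called lower and 18.3% higher. CD45+EpCAM- cells were higher than CD45-EpCAM+ cells for 3 genes, Satb1, Cd8a and Cd8b1, and lower for 0, where 19.2% of genes were called higher and 19.4% lower. These comparisons share arrays, and each is given with its own values. The median difference of the 9 genes was -4.45, -2.39 and 1.38 in these comparisons, where all genes had medians of 0.04, 0.15 and 0.14. The value of -4.45 is that of Cd8b1 itself, and the lowest was -6.32 for Cd8a, both subject to the CD8alpha gate. A median without Cd8a and Cd8b1 was not computed. The 7 calls against CD45+EpCAM- cells became 0 without any single array of those populations, and 2 without the filter on dim genes. The 8 calls against CD45-EpCAM+ cells became 4 without the TNF-KO and 3 without the TNF/RelA-DKO CD4+CD25hi array, and the 3 calls between the other fractions became 7 without the TNF/RelA-DKO CD45-EpCAM+ array.

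**Figure D2:**
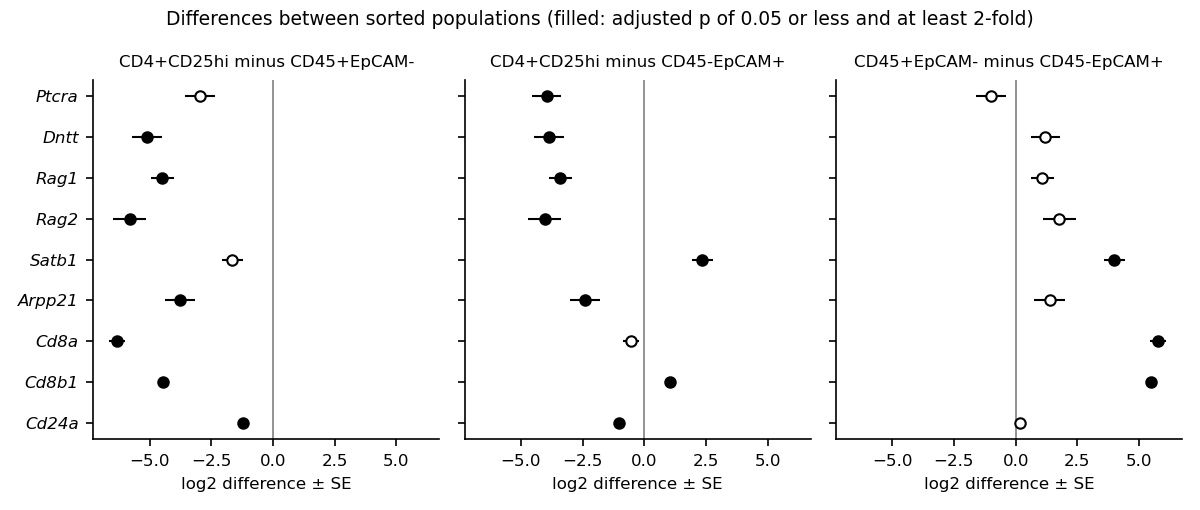
Fitted log2 differences between populations (x axis) for the 9 genes (y axis), with bars of 1 standard error from limma. Filled points have an adjusted p of at most 0.05 and at least 2-fold, and Rag2 is drawn with its dim value as measured. In CD4+CD25hi minus CD45+EpCAM-, all 9 points lie below 0 and 7 are filled. Filled points there include Cd8a and Cd8b1, and the CD4+CD25hi sort excluded cells with CD8alpha protein.

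Other thymocyte genes did not all share this pattern. Of the pan-T genes, 1 of 15 (Cd2, 2.28-fold higher, limma adjusted p = 0.0368) was called between the CD4+CD25hi sort and CD45+EpCAM- cells, and the list's median was -0.05. Of 10 genes of the double-positive stage, 6 were called lower in the CD4+CD25hi sort (median -1.90), among them Endou, 45.3-fold lower, Aqp11, an aquaporin, 15.4-fold lower, and the chemokine receptor gene Ccr9, 13.8-fold lower. Of 12 genes of the end-joining machinery that closes the breaks made by RAG1 and RAG2, 4 were called lower and 2, the polymerase genes Poll and Polm, which were named after their values were seen, higher (median -0.25). Lig4, the ligase of that pathway, was 4.85-fold lower, Xrcc6, which encodes Ku70, 4.43-fold lower, and Hmgb1 and Hmgb2, which encode DNA-bending proteins, 4.55-fold and 4.29-fold lower. Of 16 tested early thymocyte regulators, 3 were called lower and 2 higher (median -0.46): Hhex, a homeobox gene not well above background on either CD4+CD25hi array, was at least 9.60-fold lower, Mpzl2, which 1 of those arrays measured well above background, 5.67-fold lower, and Kit, a stem cell factor receptor gene, 4.57-fold higher. Notch3, a Notch receptor gene, was 5.53-fold lower and not called (limma adjusted p = 0.0611). Tcf12, an E protein gene, was the other regulator called lower and Foxo1, a forkhead factor gene, the other called higher, both named after their values were seen.

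Cell cycle genes moved with the 9 genes in that comparison. Of 11 tested, 9 were called lower in the CD4+CD25hi sort (median -3.57), among them Ccnb1, a cyclin gene, 23.0-fold lower, and Kif11, a mitotic kinesin gene, 17.6-fold lower. The part of cell division in the levels of the 9 genes was not tested. Of 12 genes of mature thymocytes, 5 were called higher in the CD4+CD25hi sort and 0 lower (median 1.36). Macrophage markers were called lower there in 7 of 7 cases (median -4.99, or -4.11 with values not well above background at the lowest level of their array that was).

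**Figure D3:**
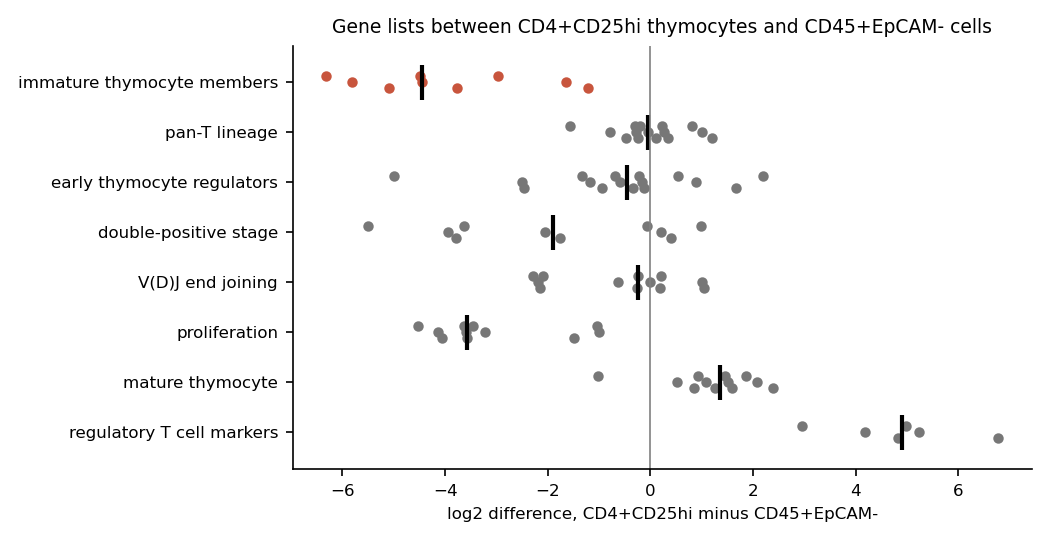
Log2 differences between the CD4+CD25hi sort and CD45+EpCAM- cells (x axis) for the genes of 8 lists (y axis), 1 point per tested gene, with the list's median as a black bar. The median is -4.45 for the 9 immature thymocyte genes, -0.05 for pan-T genes, -3.57 for proliferation genes and 4.90 for regulatory T cell markers. The value of -4.45 is that of Cd8b1, and the CD4+CD25hi sort excluded cells with CD8alpha protein.

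The genes whose levels were most like those of the 9 genes were ranked by Pearson r with the mean of the 9 centred levels over the 6 arrays, among 10204 other genes well above background on all of them. They were, in this order, Troap (r of 0.999), Uhrf1, Cenpi, Foxm1, Slc16a5, Wnt5b, Enkd1 and Cntrob (r of 0.997). The gene ranked 100 had an r of 0.972 and that ranked 500 one of 0.863, over 6 arrays that share 3 populations and their slides. The mean of the centred levels was -1.47 and -2.35 in the CD4+CD25hi sort, -0.49 and 0.19 in CD45-EpCAM+ cells, and 2.29 and 1.83 in CD45+EpCAM- cells, TNF-KO first. Among the members themselves, Rag1 had an r of 0.992 with Rag2, 0.987 with Cd24a, 0.984 with Arpp21 and 0.889 with Ptcra, and Satb1 one of 0.875 with Cd8b1.

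The genotypes were then compared within each population, TNF/RelA-DKO minus TNF-KO. Each such difference rests on a single pair of arrays with no replicate check and has no test, and genes at least 2-fold apart were counted. All 9 genes were lower in the TNF/RelA-DKO CD4+CD25hi sort, 8 of 9 were higher in CD45-EpCAM+ cells of the double knockout, and 8 of 9 were lower in its CD45+EpCAM- cells. Of all genes with a difference, 6750 of 12933 were lower in the first, 7001 of 13208 higher in the second and 7469 of 14586 lower in the third. The medians of the 9 genes were -0.88, 0.71 and -0.51, where all genes had medians of -0.02, 0.03 and -0.01.

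In the CD4+CD25hi sort, the largest difference was that of Ptcra, 2.55-fold lower in the double knockout, from -0.39 to -1.74. Dntt was 2.01-fold lower, Arpp21 1.95-fold, Rag1 1.84-fold, and Rag2 at least 1.87-fold lower, a bound because its double-knockout value was not well above background. Cd8a was 1.72-fold and Cd8b1 1.47-fold lower. Satb1 and Cd24a differed least, by -0.26 and -0.17. At least 2-fold lower were 2 of the 9 genes, Ptcra and Dntt, and 0 were higher, where 1.28% of 12933 genes lay at least 2-fold below the TNF-KO level and 1.68% above it. The 25th and 75th percentiles of all genes were -0.20 and 0.19, and different probes of a gene differed with an SD of 0.22. Under the normexp background correction, which adds an offset of 50 to each signal, all 9 genes were again lower but 0 by 2-fold, with Ptcra at -0.82, Dntt at -0.98 and a median of -0.31. Rag1's other probe gave -0.82 and Cd8a's other probe -0.29. Arpp21's other probes, of which 1 was well above background on 1 of these arrays and the other on neither, gave -1.06 and -0.24.

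Cell cycle genes were also lower in those thymocytes. All 11 of 11 measured proliferation genes were lower (median -0.59), with Kif11 at -2.14 and -3.25, 2.15-fold lower, and Rrm2, a ribonucleotide reductase gene, at 2.09 and 1.30. Of early thymocyte regulators, 10 of 15 were lower (median -0.21), with Notch3 2.36-fold lower, from -0.88 to -2.12, and Mpzl2 at least 2.18-fold lower. Pan-T genes were lower in 10 of 15 cases with a median of -0.07, double-positive stage genes in 9 of 10 (median -0.11) and end-joining genes in 9 of 12 (median -0.09). Mature thymocyte genes were higher in 11 of 12 cases (median 0.31), with Il7r, the interleukin-7 receptor alpha chain gene, at 1.39 and 3.53. Regulatory T cell markers had a median of 0.03. The part of proliferating or less mature thymocytes within the gate in the differences of the 9 genes was not tested.

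In CD45-EpCAM+ cells, Satb1 was 2.38-fold higher in the double knockout, from 1.33 to 2.57, Arpp21 2.32-fold and Dntt 2.15-fold higher. Ptcra was 1.84-fold, Rag1 1.63-fold, Rag2 1.54-fold, Cd8a 1.32-fold and Cd24a 1.08-fold higher, and Cd8b1 alone was lower, with a difference of -0.14. At least 2-fold higher were 3 genes, Satb1, Arpp21 and Dntt, and 0 were lower, where 5.1% of 13208 genes lay at least 2-fold above the TNF-KO level and 9.3% below it. The unscaled signals ran the other way, since the double-knockout array was dimmer throughout. The signal of Ptcra was 1089 there against 2033, and that of Dntt 4768 against 7627. Under the normexp background correction 0 genes were 2-fold apart, with Arpp21 at 0.84, Satb1 at 0.81 and Dntt at 0.64, while Cd8b1 turned to 0.57 and Cd24a to -0.28. The other probes gave 1.07 for Rag1, 1.35 and 1.16 for Arpp21, and -0.10 for Cd8a, the last well above background on 1 of these arrays.

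Pan-T genes moved with the 9 genes in CD45-EpCAM+ cells. All 15 of 15 were higher in the double knockout (median 0.91, at least 2-fold in 3), with Lat, an adaptor of T-cell receptor signalling, at 1.68 and 3.11, and Cd28 at -1.42 and -0.33. The log2 of the summed linear pan-T levels was 7.42 against 6.48. The median of double-positive stage genes was 0.28, that of early thymocyte regulators 0.48, that of end-joining genes 0.17, that of proliferation genes 0.25, that of mature thymocyte genes 0.52 and that of regulatory T cell markers 0.83. Macrophage markers were higher in 6 of 6 measured cases (median 0.83), erythroid markers had a median of 0.96 over 3 genes, and epithelial markers one of 0.11, which became -0.35 under the normexp correction. The part of T-lineage RNA in this CD45- sort, and of the dim array, in the differences of the 9 genes was not tested.

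In CD45+EpCAM- cells, Dntt differed most, 1.67-fold lower in the double knockout, from 6.50 to 5.76. Rag1 was 1.56-fold, Arpp21 1.53-fold, Rag2 1.48-fold, Cd8b1 1.43-fold, Ptcra 1.37-fold, Cd24a 1.33-fold and Cd8a 1.15-fold lower, while Satb1 was at 5.90 and 5.98. The other probes, all well above background here, gave -0.74 for Rag1 against -0.65 for its brightest probe, -0.15 for Rag2 against -0.56, -0.21 and -0.35 for Arpp21 against -0.62, and -0.60 for Cd8a against -0.21. None of the 9 genes was 2-fold apart, where 1.82% of 14586 genes lay that far above the TNF-KO level and 2.08% below it. Pan-T genes were higher in 10 of 15 cases here (median 0.21), opposite in sign to most of the 9 genes. Proliferation genes were lower in 12 of 12 (median -0.25), double-positive stage genes in 8 of 10 (median -0.16) and end-joining genes in 8 of 12 (median -0.06). Early thymocyte regulators were higher in 9 of 16 cases (median 0.04) and mature thymocyte genes in 9 of 12 (median 0.36). Regulatory T cell markers had a median of -0.33.

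Markers of other cell types also moved with genotype in this fraction. Macrophage markers were higher in 7 of 7 cases (median 0.81), dendritic cell markers lower in 7 of 7 (median -0.99) and plasmacytoid dendritic cell markers lower in 5 of 5 (median -1.21). Of the last list, Siglech differed by only -0.03, and its mean level was 7.35 in the CD4+CD25hi sort against 6.88 here. B lineage markers were lower in 7 of 8 cases (median -0.66). Erythroid markers had a median of 1.64 over 3 genes. Their part in the differences of the 9 genes was not tested.

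**Figure D4:**
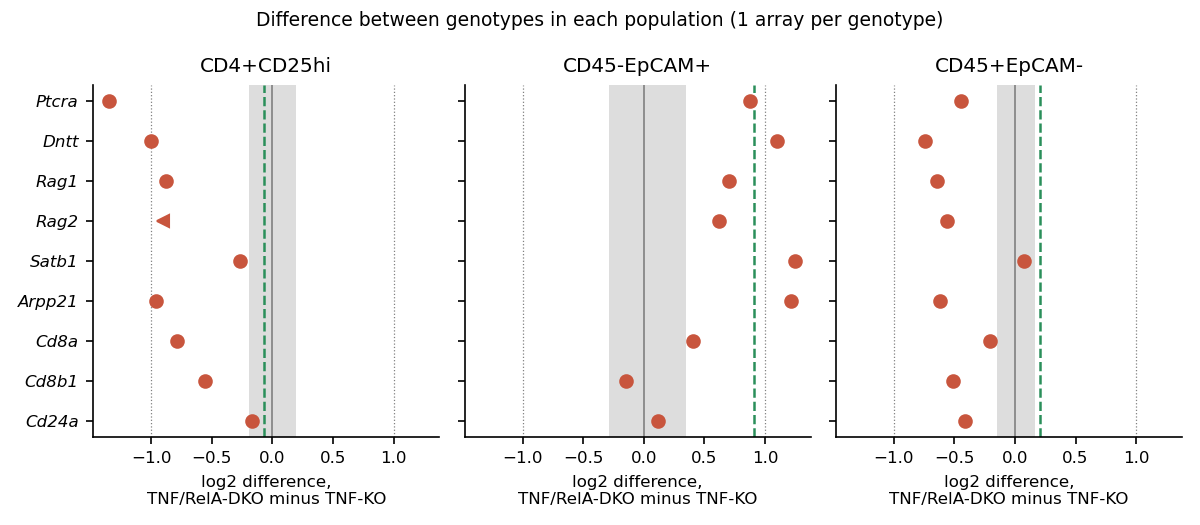
Log2 difference between genotypes, TNF/RelA-DKO minus TNF-KO (x axis), for the 9 genes (y axis) in each population, 1 array per genotype. The grey band runs from the 25th to the 75th percentile of all genes, the green dashed line the median of the pan-T genes, dotted lines mark 2-fold, and the triangle is a bound. The points lie below 0 for 9 of 9 genes in CD4+CD25hi, 1 of 9 in CD45-EpCAM+ and 8 of 9 in CD45+EpCAM-.

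A genotype effect common to the populations was tested with population as a block. Of the 9 genes, 0 were called and 1 had an unadjusted p under 0.05 in limma, where 0% of the 13740 genes were called and 873 had an unadjusted p under 0.05. That gene was Cd8b1, lower in the double knockout in all 3 populations, with a mean difference of -0.40 (SE 0.14, adjusted p = 0.679 in limma). In CD45-EpCAM+ cells its difference was only -0.14, smaller than the SD of 0.32 between probes of a gene there. Under the normexp background correction that difference turned positive. The Rag2 value was -0.62 (SE 0.55) with its dim double-knockout value as measured and -0.28 (SE 0.35) with that value raised to the lowest level well above background on its array. The other 7 genes lay between -0.31 for Ptcra (SE 0.48) and 0.35 for Satb1 (SE 0.35). The Rag2 value was 0.03 without the CD4+CD25hi pair, and the Satb1 value became -0.09 without the CD45-EpCAM+ pair.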

How the data were processed

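The authors deposited scanner files of spot intensity, made with Feature Extraction 10.5.1.1, per the file headers; the submitters' processing notes name version 9.5. Low-input amplification and Cy3 labelling preceded hybridisation, per the labels' protocols. The deposited value table is in log2 units, a scale no source used here states. It equalled the log2 processed signal minus the array's 75th percentile within 0.00536, with column medians of -3.71, -3.61, -2.84, -2.72, -3.63 and -3.58.

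Outlier and control spots were left out, spots of a probe averaged and 39419 of 39429 probes used. Accessions gave 27472 probes 1 symbol, 35 several and 11912 none, through a gene table of GRCm38.p6, whereas the array design names another build. Fits used limma 3.58.1 in R 4.3.3 over genes that 3 or more arrays measured well above background (residual df 2, prior df 1.74). The code was also run on simulated levels with independent noise of a set spread and large planted changes. That setting differs from these arrays, so it gives no error rate for them. For a bound, the dim array's value was its own or the lowest level well above background there, whichever was higher. The files give the median spot signal, so normexp (offset 50) used it in place of the planned mean signal. Alternatives were background correction, scaling, probe choice, dim-gene filter, covariate, left-out arrays and, chosen after seeing the data, values not well above background set at that bound. Members and lists were chosen with earlier results of these data known. Named genes were all members, up to 4 of each other list per comparison, the largest differences first, and the 8 genes most like the members. A gene named by this rule is not reported here.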

Additional observations from a re-analysis of the deposited data

Results flagged for a closer look

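The genotype difference, TNF/RelA-DKO minus TNF-KO, had opposite signs in CD45-EpCAM+ cells and the CD4+CD25hi sort for 8 of the 9 genes. Signs were opposite in CD45-EpCAM+ and CD45+EpCAM- cells for 7 genes, and in CD45+EpCAM- cells and the CD4+CD25hi sort for 1. The shares of all genes below are given for each of these pairs. These differences were not tested because each genotype has 1 array per population. The difference in CD45-EpCAM+ cells exceeded that in the CD4+CD25hi sort by 2.23 (log2) for Ptcra, 2.11 for Dntt, 1.59 for Rag1, 1.53 for Rag2 (from its bound), 1.51 for Satb1, 2.17 for Arpp21, 1.19 for Cd8a and 0.28 for Cd24a. Of 11057 genes with a difference in both populations, 47.7% had opposite signs. It exceeded that in CD45+EpCAM- cells by 1.33 for Ptcra, 1.85 for Dntt, 1.35 for Rag1, 1.19 for Rag2, 1.83 for Arpp21, 0.61 for Cd8a and 0.53 for Cd24a, where 45.8% of 11829 genes had opposite signs. For Satb1 the difference in CD45+EpCAM- cells exceeded that in the CD4+CD25hi sort by 0.34, where 36.4% of 12654 genes had opposite signs.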

How the results depend on the processing

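Members called lower or higher between CD4+CD25hi and CD45+EpCAM- cells, 7 as reported, numbered 2 without the filter on dim genes and 0 to 9 with 1 array left out. Between CD4+CD25hi and CD45-EpCAM+ cells, 8 as reported, they numbered 3 to 7 with 1 array left out. Between CD45+EpCAM- and CD45-EpCAM+ cells, 3 as reported, they numbered 7 under normexp and 2 to 7 with 1 array left out. The median genotype difference of the members in the CD4+CD25hi sort, -0.88, became -0.31 under normexp and -0.65 with the mean over the probes of a gene. Signs turned for Cd8a between CD4+CD25hi and CD45-EpCAM+ cells (0.0911, quantile normalization), Cd24a between CD45+EpCAM- and CD45-EpCAM+ cells (-0.14, quantile normalization; -0.0381, median scaling; -0.0138 to 0.39 with 1 array left out), and the common effects of Rag2 (0.0312 without the CD4+CD25hi pair) and Satb1 (-0.0947 without the CD45-EpCAM+ pair). Under normexp they turned for the genotype differences of Cd8b1 (0.57) and Cd24a (-0.28) in CD45-EpCAM+ cells, the median of regulatory T cell markers in the CD4+CD25hi sort (-0.0341) and that of epithelial markers in CD45-EpCAM+ cells (-0.35). With the mean over the probes of a gene, the median of early thymocyte regulators in CD45+EpCAM- cells became -0.0156. The causes were not tested. Members lower in the double knockout stayed at 8 or 9 for CD4+CD25hi, 1 for CD45-EpCAM+ and 8 for CD45+EpCAM- under each scaling, background and probe choice run. The common genotype effect paired the arrays by population; a block by replicate number could not be fitted, since each group holds a single array. The dim TNF/RelA-DKO CD45-EpCAM+ array, with 47.2% of probes well above background, limits what that population shows.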
